A study of Mus musculus with 20 samples.

Results

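The comparison set wild-type hearts against wild-type hearts: 5 whole hearts from littermate controls of the Dp3Tyb cohort (WT_Dp3Tyb) and 5 from controls of the Ts1Rhr cohort (WT_Ts1Rhr), all taken at E13.5, in the middle of gestation. They are 10 of the 20 RNA-seq libraries of the series and were chosen by genotype label alone. The other 10 libraries are 5 Dp3Tyb and 5 Ts1Rhr hearts, which carry an extra copy of a segment of mouse chromosome 16 and model Down syndrome. The wild-type hearts carry neither extra segment, received no treatment, and come from strains kept on the C57BL/6J background by the study's methods. Between them they measure how far the cohorts differed before any duplication was involved. Library identifiers run from 1 to 10 in the Dp3Tyb cohort and from 11 to 20 in the Ts1Rhr cohort, and the labels give neither litter nor dissection date, so cohort, litter, handling and library order cannot be told apart. Replicates are separate hearts, and p-values measure the spread between these hearts only.

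At this stage the mouse heart has 4 chambers with closing septa, and it beats on blood that it also contains when it is dissected. Red blood cells of the embryo come in an early yolk sac wave, with embryonic globins such as Hba-x, Hbb-y and Hbb-bh1, and a later fetal liver wave, with the adult globins Hba-a1, Hba-a2, Hbb-bs and Hbb-bt. The hearts are cut away from the lung buds and foregut, whose epithelium has its own transcription factors and adhesion genes. Red cell and foregut transcripts in such samples therefore depend on stage, on residual blood and on where the tissue was cut.

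The wild-type libraries held 6.60 to 19.3 M reads assigned to genes. Values below are normalised counts, which are reads divided by a size factor per library, and differences are WT_Dp3Tyb minus WT_Ts1Rhr on the log2(normalised count + 1) scale. Cardiomyocyte markers were high in every heart (the lowest and highest values were 77013 and 109503 for the cardiac actin Actc1, and 9994 and 16809 for the atrial peptide gene Nppa), as were the endothelial marker Pecam1 (2254 to 2804) and the epicardial marker Wt1 (550 to 913). By Xist, which silences 1 X chromosome in females, each group held 3 female and 2 male hearts. Mitochondrially encoded transcripts took over 10% of reads in WT_Dp3Tyb replicate 5 and in WT_Ts1Rhr replicates 1, 2 and 4. WT_Dp3Tyb replicate 5, the shallowest library, stood apart on the first principal component (43.7% of the variance), at a score of 70.5 against -27.5 to 35.7 for the other 9 hearts, and values without it are given for the results it changed most.

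No gene passed the main test. Of 14779 genes with a normalised count of at least 10 in 5 or more of the 10 hearts, 0 (0%) reached an adjusted p under 0.05 in limma, and 677 (4.58%) had an unadjusted p under 0.05. Of these, 356 (2.41%) were lower and 321 (2.17%) higher in WT_Dp3Tyb. edgeR's quasi-likelihood test on the reads recovered from the normalised counts also called 0 genes (0%), with 727 (4.92%) at an unadjusted p under 0.05. DESeq2 called 18 genes (0.122% of 14775), 15 lower (0.102%) and 3 higher (0.0203%) in WT_Dp3Tyb, with 900 (6.09%) at an unadjusted p under 0.05. The 2 groups of 5 values did not overlap for 148 genes (1%), 63 lower (0.426%) and 85 higher (0.575%). In what follows an effect is called lower or higher as a value, and the test that it passed or missed is named.

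Of the genes that DESeq2 called lower in WT_Dp3Tyb, Hba-a2, Hba-a1 and Hba-x are globin genes, Epb41, Bpgm and Blvrb encode a membrane skeleton protein and 2 enzymes found in red cells among other cells, and Gm6170, Gm15899, Gm7367, Rpl21-ps15, Rpl28-ps3 and Ndufb4c are annotated as pseudogenes. The others included Sorbs3, which encodes a cell adhesion adaptor, and Taf9, a general transcription factor subunit. The 3 called higher were Ndufb5, a subunit of respiratory complex I, the pseudogene Rpl10a-ps1, and Rnf14, a ubiquitin ligase gene.

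The 3 globin genes among these calls, all alpha-type, had log2 differences of -1.21 to -1.35. The stretches of 120 bases just upstream of their starts are shown, with that of the beta-type gene Hbb-bs, because these genes stood lower together. Sequences are from RefSeq on the GRCm38.p6 build, 5′ to 3′ on the gene's strand, at chr11:32276480-32276599 (+) for Hba-x, chr11:32283552-32283671 (+) for Hba-a1, chr11:32296372-32296491 (+) for Hba-a2 and chr7:103827929-103828048 (-) for Hbb-bs. Capitals mark each match, on either strand, to the CCAAT box, to the CACCC box of red cell genes or to the core TATAA motif, and no marked matches overlap.
Hba-x: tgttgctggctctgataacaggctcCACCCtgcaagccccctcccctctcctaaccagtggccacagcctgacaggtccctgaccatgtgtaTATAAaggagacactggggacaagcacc
Hba-a1: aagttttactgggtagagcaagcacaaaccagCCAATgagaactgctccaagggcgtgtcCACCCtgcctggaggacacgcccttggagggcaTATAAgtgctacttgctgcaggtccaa
Hba-a2: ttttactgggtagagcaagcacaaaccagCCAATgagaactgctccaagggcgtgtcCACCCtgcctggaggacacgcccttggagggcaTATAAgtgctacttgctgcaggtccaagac
Hbb-bs: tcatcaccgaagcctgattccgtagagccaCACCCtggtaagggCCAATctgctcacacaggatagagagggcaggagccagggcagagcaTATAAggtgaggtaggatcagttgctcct

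Hba-a1, Hba-a2 and Hbb-bs each held 1 match to each of the 3 motifs, and Hba-x held no CCAAT in this window. Of 32851 windows of the same length, the CCAAT box was in 21.3%, the CACCC box in 31.7% and the TATAA motif in 11.8%, and 226 (0.688%) held all 3. The Hba-a1 and Hba-a2 windows shared an unbroken run of 117 bases, and over 429 coding bases the 2 genes were identical at 428 (99.8%). Reads of such copies can be split between them in counting, so the level of either copy alone is uncertain, as it is for Hbb-bs and Hbb-bt, which were identical at 443 of 444 coding bases.

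All 7 tested globin genes had lower means in WT_Dp3Tyb than in WT_Ts1Rhr. Hba-a2, an adult alpha-globin gene (chr11:32296492-32297310, GRCm38), had normalised counts of 12589, 16672, 14759, 13090 and 9210 in WT_Dp3Tyb replicates 1 to 5 and of 25784, 41380, 28925, 18412 and 71858 in WT_Ts1Rhr replicates 1 to 5. Every WT_Dp3Tyb heart was below every WT_Ts1Rhr heart. The means were 13264 ± 2773 and 37272 ± 21038 (SD, n = 5 each), a log2 difference of -1.35 ± 0.31 (SE), with a limma adjusted p of 0.910 and a DESeq2 adjusted p of 0.00794. Its near-identical neighbour Hba-a1 also did not overlap between groups, at 9892 ± 2120 and 24995 ± 13300 (-1.21, limma adjusted p = 0.910, DESeq2 adjusted p = 0.0266).

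The embryonic alpha-type gene Hba-x had normalised counts of 2417, 4433, 3907, 4652 and 2995 in WT_Dp3Tyb and of 6445, 19989, 8111, 7803 and 6492 in WT_Ts1Rhr. The groups did not overlap, and WT_Ts1Rhr replicate 2 was far above its other 4 hearts. The log2 difference was -1.30 ± 0.30 (SE), with a limma adjusted p of 0.910 and a DESeq2 adjusted p of 0.0130.

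The beta-type genes were lower on average but overlapped between groups. Hbb-bs, an adult beta-globin gene, read 11964, 12229, 8768, 7145 and 6327 in WT_Dp3Tyb and 16077, 12193, 12563, 7721 and 64834 in WT_Ts1Rhr. WT_Ts1Rhr replicate 5 was far above every other heart, and the other 4 WT_Ts1Rhr hearts lay partly within the WT_Dp3Tyb range (-0.88, limma adjusted p = 0.910). The embryonic Hbb-y differed by -0.92, Hbb-bh1 by -0.90 and Hbb-bt by -0.82 (limma adjusted p = 0.910 for each). The median over the 3 embryonic globins tested was -0.92 and over the 4 adult globins -1.05, against -0.0020 over all 14779 genes. Leaving out 1 heart at a time, the adult median ran from -1.29 to -0.67, the latter without WT_Ts1Rhr replicate 5, and the embryonic median from -1.11 to -0.67, the latter without WT_Dp3Tyb replicate 5, where 1 rather than 2 of the 3 embryonic genes had an unadjusted p under 0.05. The adult globin difference leaned on 2 hearts: summed over the 4 genes it was -1.16, and -0.67 without WT_Ts1Rhr replicate 5, which had the highest globin share of reads, and WT_Dp3Tyb replicate 5, which had the lowest.

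**Figure D1:**
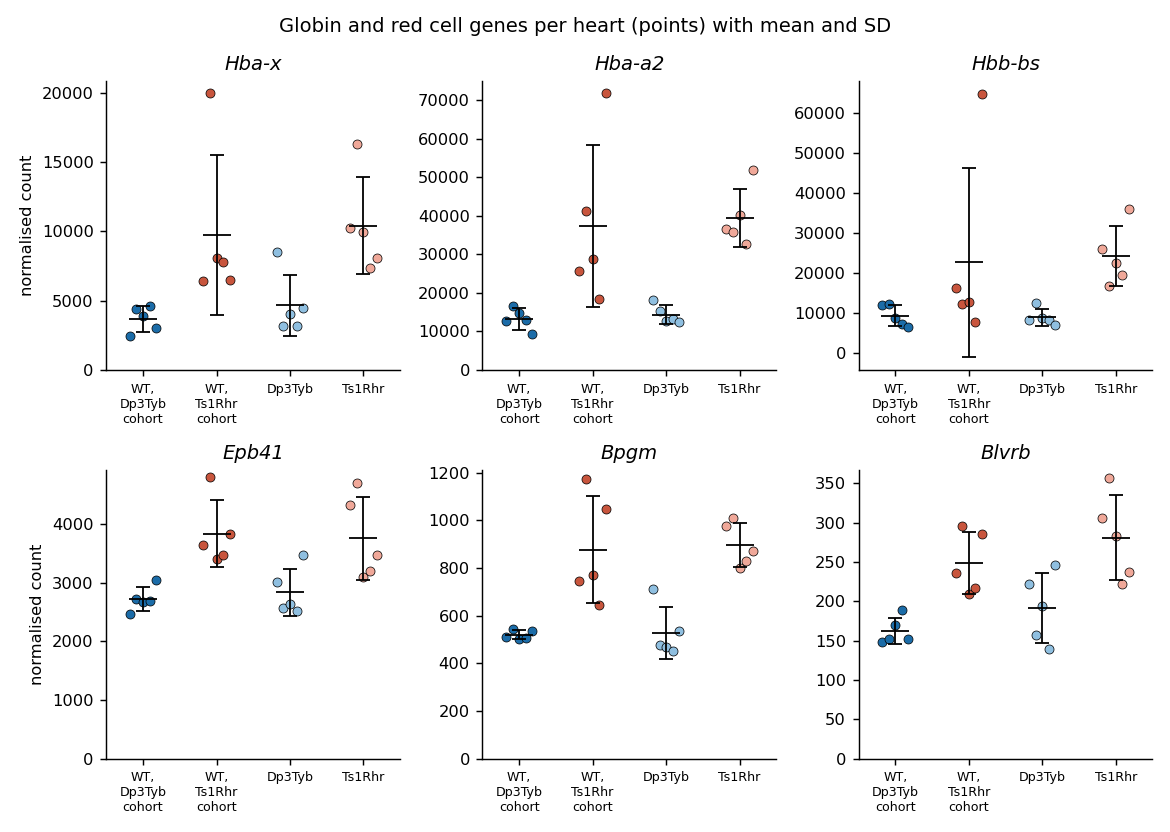
Normalised counts of Hba-x, Hba-a2, Hbb-bs, Epb41, Bpgm and Blvrb (y axes) in each heart of the 4 groups (x axes); points are hearts and bars the mean ± SD of 5. In the wild-type groups Hba-x, Hba-a2, Epb41, Bpgm and Blvrb do not overlap, while Hbb-bs does, with 1 WT_Ts1Rhr heart at 64834.

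Of the other genes DESeq2 called, 3 have known roles in red cells and are not in the list of erythroid genes described next. Epb41, which encodes protein 4.1 of the red cell membrane skeleton and is also made in other cells, read 2461, 2726, 2678, 2687 and 3048 in WT_Dp3Tyb and 3637, 4807, 3410, 3468 and 3838 in WT_Ts1Rhr (-0.49 ± 0.10 SE, limma adjusted p = 0.910, DESeq2 adjusted p = 0.00896). Bpgm, which makes the 2,3-bisphosphoglycerate that lowers haemoglobin's oxygen affinity, read 510, 544, 502, 505 and 537 against 746, 1174, 770, 643 and 1046 (-0.72 ± 0.15 SE, limma adjusted p = 0.910, DESeq2 adjusted p = 0.00794). The 5 WT_Dp3Tyb hearts lay close together and the WT_Ts1Rhr hearts all above them, with WT_Ts1Rhr replicates 2 and 5 highest. Blvrb, the biliverdin reductase B gene, did not overlap either, at 162 ± 16.9 and 248.8 ± 39.8 (SD, n = 5 each; -0.61, DESeq2 adjusted p = 0.0130).

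Of the 20 tested members of a list of erythroid genes, 17 had a negative difference, 8 were lower at an unadjusted limma p under 0.05 and 0 higher, with a median of -0.42, where 2.41% of all genes were lower at that level. DESeq2 called 0 of the 20. Without WT_Dp3Tyb replicate 5, 8 of 19 members were lower and 1 higher. In that setting 1959 of 14668 genes were lower and 1974 higher, 26.8% in either direction. The erythroid median ran from -0.55 to -0.33 without 1 heart at a time. Kel, a red cell surface antigen gene, read 26.7, 40.4, 35.5, 41.1 and 23.5 in WT_Dp3Tyb and 83.1, 229, 79.7, 42.1 and 59.0 in WT_Ts1Rhr. It was the 1 member of this list without overlap, where 0.426% of all genes were lower without overlap. Alas2, which encodes the first enzyme of red cell haem synthesis, read 445, 674, 543, 559 and 297 in WT_Dp3Tyb and 800, 1352, 859, 427 and 2146 in WT_Ts1Rhr. WT_Ts1Rhr replicate 4 lay inside the WT_Dp3Tyb range for Alas2, and the other 4 WT_Ts1Rhr hearts lay above it (-0.99).

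Other erythroid members lower at an unadjusted p under 0.05 included the anion exchanger gene Slc4a1 (-1.08), Epb42 of the membrane skeleton (-1.14), Trim10 (-1.17), the haem synthesis gene Fech (-0.33) and Ube2l6 (-0.41). The positive members included the transferrin receptor gene Tfrc, which differed by 0.35, and the erythropoietin receptor gene Epor, which differed by 0.28. In whole hearts, fewer red cells and less RNA per red cell cannot be told apart.

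Globin transcripts took 0.383%, 0.494%, 0.441%, 0.441% and 0.181% of the reads in WT_Dp3Tyb replicates 1 to 5 and 0.592%, 1.06%, 0.742%, 0.367% and 1.66% in WT_Ts1Rhr. The ranges met only through WT_Ts1Rhr replicate 4. The means of 0.388% ± 0.122 and 0.886% ± 0.504 (SD, n = 5 each) differed by -0.498 percentage points, with a two-sided exact permutation p of 0.0397, and of 0.159 after adjustment over the 4 shares compared. Leaving out 1 heart at a time, the difference ran from -0.628 to -0.303 and its adjusted exact permutation p from 0.0317, without WT_Ts1Rhr replicate 4, to 0.317.

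The embryonic share of the beta-type globin reads, which falls as fetal liver red cells replace yolk sac ones, did not separate the cohorts. It was 52.5% ± 9.51 in WT_Dp3Tyb and 54.0% ± 20.1 in WT_Ts1Rhr (SD, n = 5 each; difference -1.48 percentage points, exact permutation p = 0.889). Without 1 heart at a time the difference ran from -9.57, without WT_Ts1Rhr replicate 5, to 3.56 percentage points, so the direction was not fixed. That heart held 21.7%, against 49.4% to 74.2% in the other WT_Ts1Rhr hearts. The group medians were 50.7% in WT_Dp3Tyb and 60.5% in WT_Ts1Rhr.

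The mutant hearts are littermates from the same cohorts and share no library with the wild types, so the same measures could be read again in them. This is not an independent repeat, since the cohorts are the same. Dp3Tyb and Ts1Rhr hearts also differ in the duplicated segment. Hba-a2 was 14349 ± 2417 in Dp3Tyb and 39483 ± 7503 in Ts1Rhr hearts (SD, n = 5 each), a log2 difference of -1.46 with a limma adjusted p of 0.00136, and Hba-a1 fell by the same test (-1.34, limma adjusted p = 0.00136), as did Hbb-bs (-1.43, limma adjusted p = 0.0486). Hba-a1 and Hba-a2 passed in limma without each heart in turn, while Hbb-bs passed only without replicate 2 of either mutant group (limma adjusted p = 0.0261 and 0.0293), had values from 0.0538 to 0.232 without each of the others, and missed in edgeR (adjusted p = 0.0690) but passed in DESeq2 (adjusted p = 2.18e-08). These 3 and the genes C2cd2 and Zbtb21 were the 5 of 14855 genes (0.0337%) that passed in the mutants, and Zbtb21 missed without replicate 2 or 4 of Dp3Tyb or replicate 1 or 4 of Ts1Rhr (limma adjusted p from 0.0928 to 0.104). The globin share was 0.415% ± 0.113 in Dp3Tyb and 0.984% ± 0.190 in Ts1Rhr (difference -0.570 percentage points, exact permutation p = 0.00794, the smallest that 5 against 5 allows, and 0.0317 after adjustment over 4 shares). The difference between cohorts for Hba-a2 was not shown to differ between wild types and mutants (0.10 ± 0.36 SE, limma adjusted p = 0.9997).

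Bpgm differed by -0.78 in the mutants (limma adjusted p = 0.0762, DESeq2 adjusted p = 2.99e-05), Hba-x by -1.20 (limma 0.602, DESeq2 0.0273), and Epb41 and Blvrb by -0.39 and -0.56 (limma above 0.999 and DESeq2 above 0.9 for both). Averaged over wild-type and mutant hearts, 7 genes had a limma adjusted p under 0.05. That fit was added after the data were seen and treated all 20 hearts as unrelated. The 7 genes were Hba-a2 (-1.41), Bpgm (-0.75), Hba-a1 (-1.27), Hba-x (-1.25) and Zfp385a (-0.25) as lower, and C2cd2 and Zbtb21 as higher. Zfp385a encodes a zinc finger protein, and its difference was -0.27 in the wild types and -0.23 in the mutants.

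C2cd2 and Zbtb21 differed between cohorts in the mutants and not in the wild types. In the wild types C2cd2 read 577, 592, 556, 597 and 482 against 591, 571, 531, 463 and 575, and Zbtb21 read 291, 311, 314, 302 and 276 against 315, 276, 307, 325 and 291. Both overlapped throughout (0.04 and -0.02), while in the mutants the differences were 0.75 and 0.60. By the paper, these 2 genes have an extra copy in Dp3Tyb but not in Ts1Rhr mice. The gap between wild types and mutants was -0.71 for C2cd2 (limma adjusted p = 0.0292) and -0.61 for Zbtb21 (adjusted p = 0.0358), and they were the 2 of 15348 genes (0.013%) to pass. Leaving out a single heart, from any of the 4 groups, gave between 0 and 3 calls. The 28 tested genes of the list duplicated in the mutants had a median of -0.0088 in the wild types, with 2 lower and 2 higher at an unadjusted p under 0.05, where 4.58% of all genes had such a p, or 5 and 4 of 27 without WT_Dp3Tyb replicate 5, where 26.8% had. Dyrk1a, a kinase gene of that list, was 1910 ± 224 and 1985 ± 228 (-0.06).

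Across the 14620 genes tested in both pairs of groups, the wild-type and mutant differences had the same sign for 61.5% and a Spearman correlation of 0.261, a description across genes that share libraries and are not independent. At an unadjusted limma p under 0.05, the mutants had 319 of 14855 genes (2.15%), 188 lower (1.27%) and 131 higher (0.882%) in Dp3Tyb. In both pairs, 46 genes were lower in both (0.315%), 16 higher in both (0.109%) and 2 opposite. Of the 27 tested members of the globin and erythroid lists, 26 had the same sign in both. Hsd3b6, a steroid dehydrogenase gene picked out after its values were seen, was 206 ± 85.4 in WT_Dp3Tyb and 520 ± 280 in WT_Ts1Rhr (-1.32) with no overlap, and differed by -1.25 in the mutants. The sphingolipid synthesis gene Sptssa was among those higher in both, at 735, 616, 691, 673 and 708 against 522, 511, 593, 484 and 598 in the wild types (0.34), and 0.31 in the mutants.

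**Figure D2:**
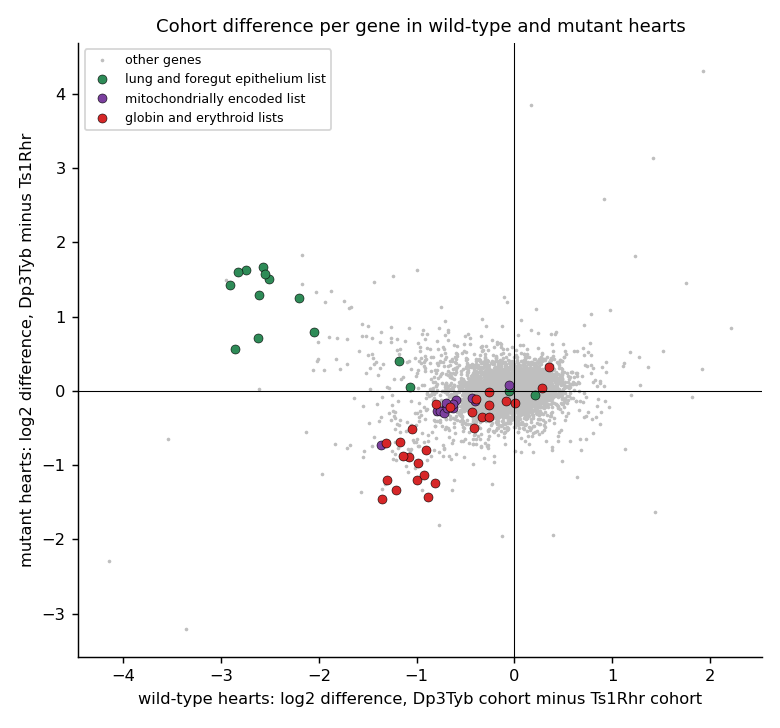
Log2 difference between cohorts in mutant hearts (y axis, Dp3Tyb minus Ts1Rhr) against that in wild-type hearts (x axis, WT_Dp3Tyb minus WT_Ts1Rhr), 1 point a gene. Colours mark the globin and erythroid lists (red), which lie mostly below 0 on both axes, the mitochondrially encoded genes (purple) and the lung and foregut list (green), whose median is -2.55 in wild types and 1.26 in mutants.

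Among the pseudogenes that DESeq2 called, Gm6170, a processed pseudogene, read 48.7, 36.5, 33.2, 38.1 and 49.9 in WT_Dp3Tyb and 92.9, 92.2, 69.9, 78.5 and 79.2 in WT_Ts1Rhr. The groups did not overlap, and its difference of -0.99 ± 0.16 (SE) had the smallest p of all genes (limma adjusted p = 0.698, DESeq2 adjusted p = 6.55e-05). Gm15899 was 23.1 ± 9.72 and 67.1 ± 21 (-1.57), Gm7367 24.8 ± 14.1 and 98.9 ± 46.3 (-1.97), and Rpl21-ps15 72.7 ± 27.2 and 150 ± 36.9 (-1.06; SD, n = 5 each for all 3). For Gm7367 and Rpl21-ps15 WT_Dp3Tyb replicate 5 reached into the WT_Ts1Rhr range. Pseudogenes share sequence with their parent genes, so their levels are uncertain.

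As a class, 264 processed pseudogenes were tested, of which 37 (14.0%) were lower and 7 (2.65%) higher at an unadjusted limma p under 0.05, with a median of -0.31. Transcribed processed pseudogenes were alike, with 13 of 96 lower (13.54%), 4 higher (4.17%) and a median of -0.22. Protein-coding genes had 274 of 13494 lower (2.03%) and 297 higher (2.20%), with a median of 0.0032. The 2935 shortest genes by annotated length (134 to 1431 bases) had a median of -0.04, and 6.61% of them had an unadjusted p under 0.05, against 3.82% to 4.40% in longer classes of similar number.

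The pseudogene share of reads was 1.90%, 1.98%, 2.04%, 2.001% and 5.26% in WT_Dp3Tyb and 3.55%, 3.48%, 2.70%, 4.77% and 2.22% in WT_Ts1Rhr. It was high in the same libraries as the mitochondrial share, which was 4.85%, 5.42%, 5.41%, 5.30% and 19.5% in WT_Dp3Tyb and 11.8%, 10.5%, 7.17%, 17.2% and 5.84% in WT_Ts1Rhr. Within WT_Ts1Rhr the hearts had the same order in both shares. The part of the mitochondrial share in the pseudogene differences was not tested.

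**Figure D3:**
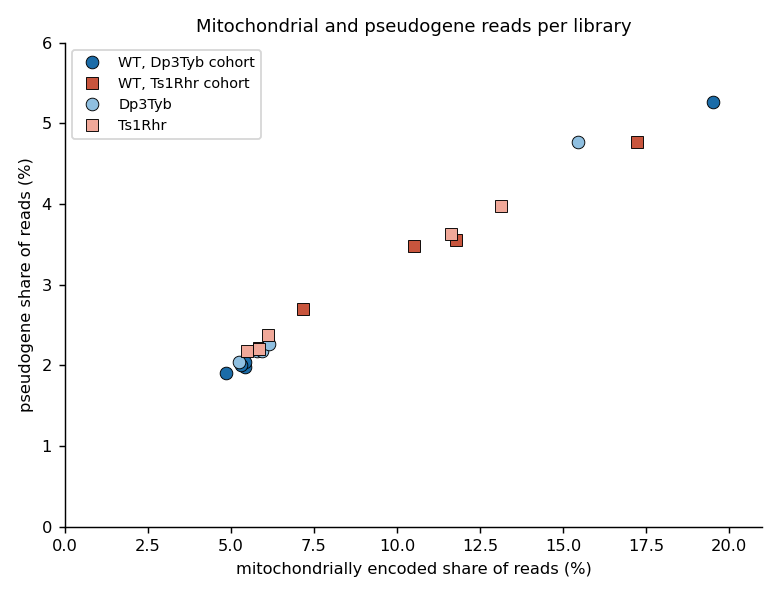
Share of reads on pseudogenes (y axis, %) against share of reads on mitochondrially encoded genes (x axis, %) in the 20 libraries, coloured by group. The 2 shares are high in the same libraries, with WT_Dp3Tyb replicate 5 highest on both axes (19.5% and 5.26%).

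The mitochondrial share itself did not separate the wild-type groups. Means were 8.10% ± 6.38 and 10.5% ± 4.47 (SD, n = 5 each; difference -2.41 percentage points, exact permutation p = 0.5), and the difference ran from -5.26 to -0.731 percentage points without 1 heart at a time. All 13 mitochondrially encoded protein genes had negative differences, none with an unadjusted p under 0.05, and a median of -0.69, or -0.37 without WT_Ts1Rhr replicate 4. mt-Atp8, which encodes a small subunit of ATP synthase, read 7581, 8003, 7934, 7458 and 94454 in WT_Dp3Tyb and 42537, 39098, 21894, 69583 and 15268 in WT_Ts1Rhr. Every WT_Ts1Rhr heart was above 4 WT_Dp3Tyb hearts, and WT_Dp3Tyb replicate 5 was above them all.

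That 1 heart decided how many genes separated the cohorts. Without it, 9 of 14668 genes passed limma, 3 higher (Ndufb5 and Rpl10a-ps1 among them) and 6 lower (among them Gm6170, Rpl21-ps15, Gm8325, Gm10357 and Gm11478) in WT_Dp3Tyb, and 3933 (26.8%) had an unadjusted p under 0.05, 1959 of them lower and 1974 higher. DESeq2 without it, added after the data were seen, called 1543 genes. For 3635 of the 3933 genes (92.4%) the omitted heart lay nearer the WT_Ts1Rhr mean, compared with 67.3% of the other genes.

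The 13 mitochondrially encoded genes were then all lower at an unadjusted p under 0.05, with a median of -1.23. Among 245 processed pseudogenes, 99 were lower and 20 higher, and among 79 nuclear genes of oxidative phosphorylation 20 were lower and 27 higher. Of all 14668 genes in that setting, 1959 were lower and 1974 higher. The 4 remaining WT_Dp3Tyb hearts held 4.85% to 5.42% mitochondrial reads and the 5 WT_Ts1Rhr hearts 5.84% to 17.2%, so in these 9 libraries cohort and mitochondrial share cannot be told apart. Leaving out all 4 wild-type libraries over 10%, which left 4 hearts against 2, gave 0 calls and 1456 of 14205 genes (10.2%) at an unadjusted p under 0.05.

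The Dp3Tyb mutant group also had 1 library over 10%, replicate 5 at 15.5%, and Ts1Rhr replicates 1 and 2 were at 11.6% and 13.1%. With replicate 5 of WT_Dp3Tyb and of Dp3Tyb left out, the wild-type and mutant differences had a Spearman correlation of 0.606. The sign was the same for 75.4% of 14526 genes, and 731 genes had an unadjusted p under 0.05 in the same direction in both, 439 of them lower. The Ts1Rhr cohort libraries over 10% stayed in, so the mutant difference there also mixes cohort with mitochondrial share. Without every library over 10% the correlation was 0.245 and the same-sign share 59.9%. These settings were added after the data were seen.

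Some genes were read high in the same libraries and others low. Tnnt2, the cardiac troponin T gene, read 34483, 40425, 34452, 38631 and 86245 in WT_Dp3Tyb and 52765, 50531, 43823, 73393 and 44936 in WT_Ts1Rhr. WT_Dp3Tyb replicate 5 and WT_Ts1Rhr replicate 4, the 2 shallowest and most mitochondrial libraries, were the 2 highest, and the groups differed by -0.25 (limma adjusted p = 0.910). The antigen presentation gene B2m followed this order, at 3086 and 2773 in these hearts against 923 to 1752 in the other 8, and so did the proliferation marker Mki67, at 13711 and 12613 against 6486 to 11449. Acta1, the skeletal actin gene that embryonic heart muscle also uses, had the opposite order, at 1371 and 1346 in these hearts, the 2 lowest of the 10.

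Genes of lung and foregut epithelium had the largest list median in size, -2.55 over 15 tested members, of which 14 were negative and 7 lower at an unadjusted limma p under 0.05 (2.41% of all genes were). Leaving out 1 heart at a time, the median ran from -3.33, without WT_Dp3Tyb replicate 1, to -1.93, without WT_Dp3Tyb replicate 4, and it was -1.59 with a pseudocount of 5 and -1.88 without the 4 libraries over 10% mitochondrial reads. Of the 15 members, 1 was lower and 1 higher without WT_Dp3Tyb replicate 5, where 26.8% of all genes had such a p in either direction. Nkx2-1, the lung and thyroid transcription factor gene, read 38.3, 0, 43.3, 0 and 0 in WT_Dp3Tyb and 56.1, 19.5, 31.4, 55.5 and 18.6 in WT_Ts1Rhr. Cdh1, which encodes the epithelial adhesion protein E-cadherin, read 158, 1.52, 111, 1.495 and 8.81 in WT_Dp3Tyb and 148, 40.1, 74.3, 161 and 108 in WT_Ts1Rhr. The WT_Dp3Tyb hearts split into replicates 1 and 3, at WT_Ts1Rhr levels, and replicates 2, 4 and 5, near 0. A count of 0 allows up to 3 reads, or a normalised count of 8.81 in the shallow WT_Dp3Tyb replicate 5 and 2.24 in replicate 4.

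The foregut factor genes Foxa1 (-2.75), Foxa2 (-2.62) and Sox2 (-2.63) and the secreted signal gene Wnt7b (-2.51) had the same split among the WT_Dp3Tyb hearts. The surface marker gene Epcam read 133, 2.28, 81.9, 2.99 and 20.6 in WT_Dp3Tyb and 125, 40.1, 78.8, 117 and 76.8 in WT_Ts1Rhr. Krt7 and Etv5 were the exceptions, above 167 in every heart, with differences of -0.05 and 0.21. Counting members at a normalised count of 10 or more, WT_Dp3Tyb replicates 1 to 5 held 15, 2, 15, 3 and 3 of the 15, and WT_Ts1Rhr replicates held 14, 13, 15, 15 and 15. Tested members had to reach 10 in at least 5 of these 10 hearts. The counts and the list's median are therefore partly set by that filter.

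In the mutants the list, with the same 15 members kept by their wild-type values, pointed the other way. Its median was 1.26 with 2 of 15 members negative, and the numbers of members at 10 or more were 10, 14, 15, 15 and 14 in Dp3Tyb and 3, 12, 2, 15 and 15 in Ts1Rhr hearts. No gap between wild types and mutants passed for a member (limma adjusted p = 0.9997 for Sim2). Each of the 4 groups had at least 1 heart that held 14 or more members at this level, and 2 of the groups had hearts that held 3 or fewer.

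**Figure D4:**
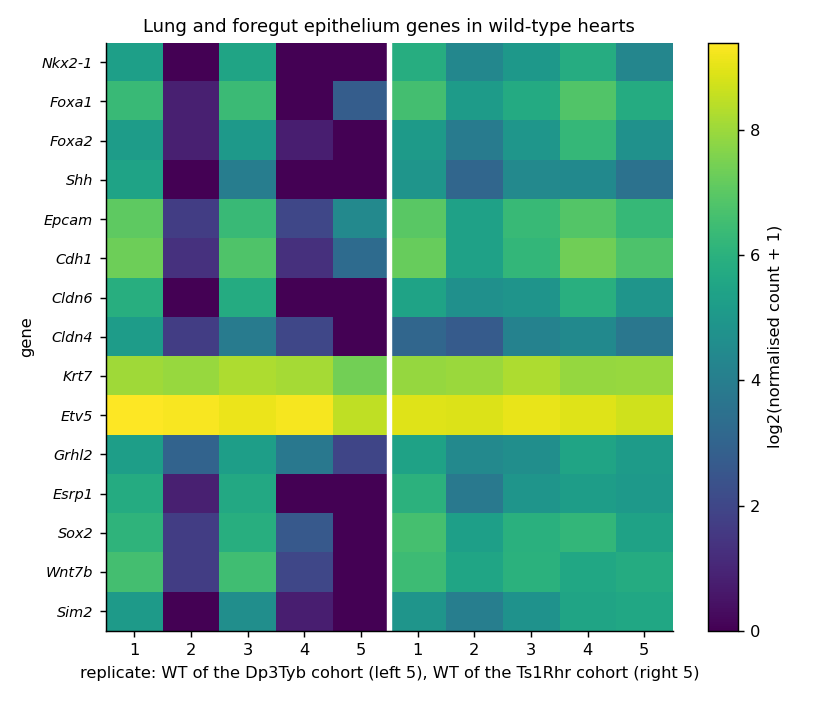
Heat map of log2(normalised count + 1) for the 15 tested lung and foregut genes (y axis) in the 10 wild-type hearts (x axis). WT_Dp3Tyb replicates 2, 4 and 5 are near 0 for all but Krt7 and Etv5 and a few low values, and the other 7 hearts hold 13 to 15 of the genes at a normalised count of 10 or more.

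No thymus or pharynx gene passed limma or DESeq2. Hoxa3, a patterning gene of the pharyngeal arches, read 130, 36.5, 99.7, 31.4 and 55.8 in WT_Dp3Tyb and 149, 108, 94.1, 147 and 89.8 in WT_Ts1Rhr, with the same WT_Dp3Tyb hearts low, and the 4 tested thymus and pharynx genes had a median of -0.82, with 2 lower at an unadjusted p under 0.05, against a median of 0.30 in the mutants. Neural crest and ganglion genes had a median of -0.25, with 1 of 13 lower at an unadjusted p under 0.05, and ran from -0.57 to -0.11 without WT_Dp3Tyb replicates 1 and 4 in turn. Of all genes, 2.41% were lower at that level. Without WT_Dp3Tyb replicate 5, 2 of the 4 thymus and pharynx genes were lower, where 1959 of 14668 genes were.

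Skeletal muscle genes marked a single heart. Myh3, an embryonic skeletal myosin gene, read 931 in WT_Dp3Tyb replicate 1, and 4.57, 30.1, 1.495 and 67.5 in replicates 2 to 5, against 10.8 to 48.5 in WT_Ts1Rhr. Mylpf, a fast skeletal light chain gene, was 212 in the same heart and 34.6 to 64.6 in the other 9. Of 15 liver genes 4 were tested, with a median of 0.16, and of 8 cartilage genes tested 0 had an unadjusted p under 0.05 in either direction. Without WT_Dp3Tyb replicate 1 the median over 4 tested skeletal muscle genes went from 0.42 to -0.26. How much of these tissues each dissected heart carried was not measured apart from these transcripts.

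Among 25 sarcomere genes 13 differences were negative and 12 positive, 0 had an unadjusted p under 0.05, and the median was -0.0054. Its sign was not fixed, since the median ran from -0.11 to 0.06 over 12 alternative settings. Without WT_Dp3Tyb replicate 5, 7 of the 25 were lower and 3 higher at an unadjusted p under 0.05, with a median of -0.11. In that setting 1959 of 14668 genes were lower and 1974 higher, 26.8% in either direction. Myh7, the main ventricular myosin of the embryo, was 136134 ± 28562 and 135121 ± 15040 (-0.0054), Myh6 differed by -0.14, Myl2 by -0.12 and Myl7 by -0.13. Myl7, the atrial light chain gene, took 18.98% ± 1.85 of the Myl7 and Myl2 reads in WT_Dp3Tyb and 18.96% ± 0.695 in WT_Ts1Rhr (SD, n = 5 each; difference 0.0234 percentage points, exact permutation p = 0.984), and the difference ran from -0.338 to 0.801 without 1 heart at a time.

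Chamber and maturation genes also had few members with a small p. Atrial genes (13 tested) had a median of 0.02 and ventricular genes (10 tested) of 0.0014, with 0 and 1 members at an unadjusted p under 0.05, both again without a fixed sign over the alternatives. Nppa read 11696, 15051, 12848, 16809 and 10532 against 9994, 10641, 13107, 10446 and 11406 (0.25, limma adjusted p = 0.910). Of 25 cardiomyocyte maturation genes 1 was higher and 0 lower at an unadjusted p under 0.05. That gene, Ckmt2, the mitochondrial creatine kinase of muscle, read 69.6, 82.2, 68.8, 75.5 and 120 against 61.5, 60.8, 59.1, 51.7 and 73.6 (0.41). Without WT_Dp3Tyb replicate 5, maturation genes had 7 lower and 2 higher (median -0.13), atrial genes 3 and 1, and ventricular genes 2 and 1. In that setting 1959 of 14668 genes were lower and 1974 higher, 26.8% in either direction. Conduction genes had the most negative median of the cardiac lists, -0.20, with 3 of 13 lower at an unadjusted p under 0.05. Of all genes, 2.41% were lower at that level. Without WT_Dp3Tyb replicate 5 the conduction median was -0.06, with 2 lower, and without all libraries over 10% mitochondrial reads it was -0.02.

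The other cells of the heart wall gave few such genes. Endothelial (20 tested), valve mesenchyme (18), epicardial (13) and collagen genes (39) had 0 members at an unadjusted p under 0.05 in either direction, and medians of 0.03, -0.06, -0.05 and -0.05. None of their members had a limma adjusted p under 0.05. Without WT_Dp3Tyb replicate 5, endothelial genes had 2 lower and 3 higher at an unadjusted p under 0.05, valve mesenchyme and epicardial genes 1 lower each, and collagen genes 1 higher, shares at or below the 26.8% of all genes in that setting. The endothelial adhesion gene Esam had the largest difference of its list, 0.38, at 519, 545, 509, 547 and 282 against 330, 325, 425, 237 and 553. Imprinted growth genes had a median of -0.18, or -0.09 without WT_Ts1Rhr replicate 4, with 14 of 17 negative. Of the 17, 2 were lower at an unadjusted p under 0.05, where 2.41% of all genes were. Without WT_Dp3Tyb replicate 5, 6 were lower and 1 higher, where 1959 of 14668 genes were lower and 1974 higher. H19, the imprinted non-coding RNA, read 132533, 134198, 136502, 132916 and 196663 against 182183, 169504, 147648, 218147 and 142692. WT_Dp3Tyb replicate 5 was again beside the WT_Ts1Rhr hearts and the other 4 below all of them.

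Lists of handling and stress markers had medians near 0. Heat shock genes (14 tested) had a median of -0.0043 and circadian genes (18) of 0.0017, each with 0 members at an unadjusted p under 0.05. Immediate early genes (25) had 1 lower and 1 higher, and a median of 0.07, and hypoxia and glycolysis genes (30) had 0 lower and 1 higher, the lactate dehydrogenase gene Ldha (0.19), and a median of 0.06. Interferon-stimulated genes had a median of 0.16, with 19 of 23 positive and 1 higher at an unadjusted p under 0.05. DNA replication genes (27) had 2 lower and 0 higher, and mitosis genes (25) 0 in either direction, with medians of -0.0090 and -0.03. Without WT_Dp3Tyb replicate 5, mitosis genes had 9 lower and 1 higher (21 of 25 negative, median -0.12), DNA replication genes 4 and 1, heat shock genes 2 and 3, circadian genes 1 and 3, immediate early genes 2 and 4, hypoxia and glycolysis genes 0 and 5, and interferon-stimulated genes 1 and 2. In that setting 1959 of 14668 genes were lower and 1974 higher, 26.8% in either direction.

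**Figure D5:**
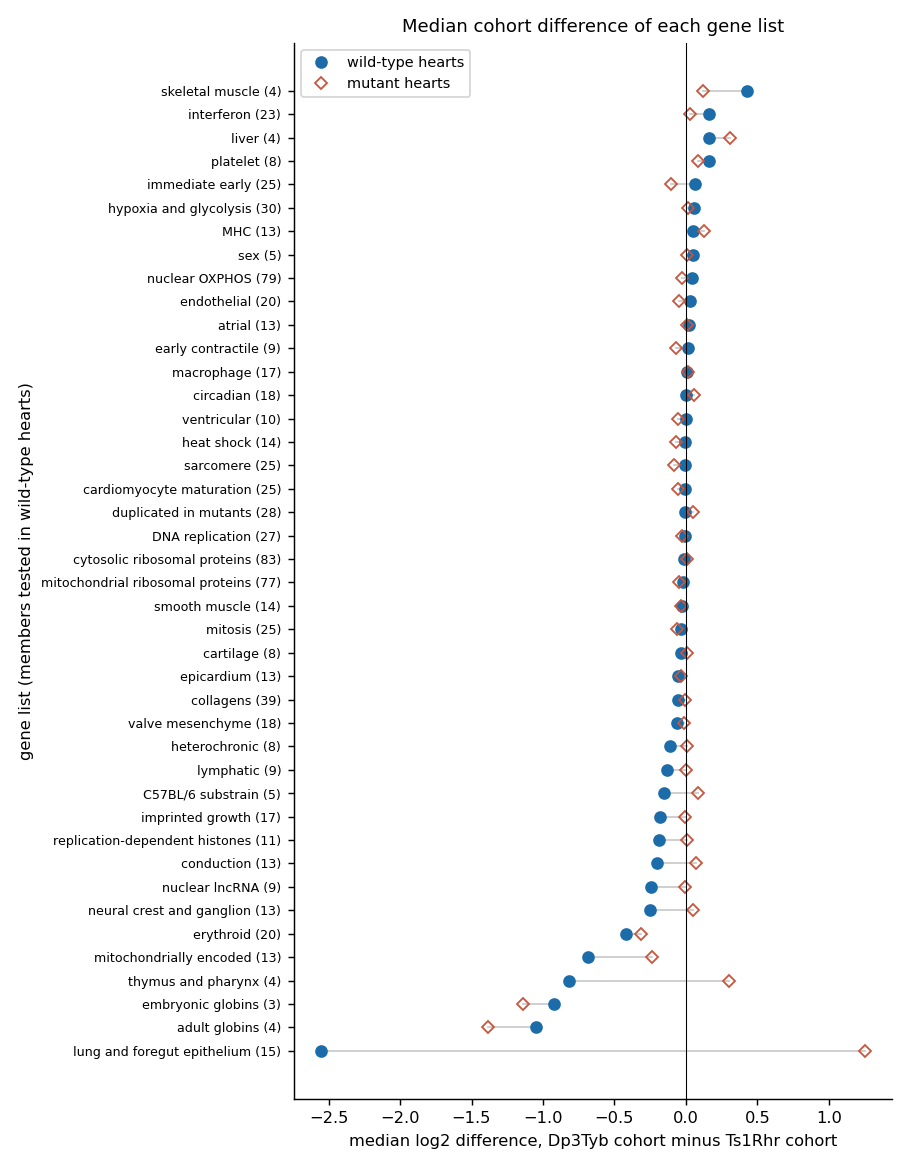
Median log2 difference between cohorts (x axis) of each gene list (y axis), with wild-type and mutant hearts as separate points. Globin lists lie below 0 in both, the lung and foregut list lies at -2.55 in wild types and 1.26 in mutants, and most cardiac lists lie near 0.

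Among the genes with higher values in WT_Dp3Tyb, Ndufb5 read 1356, 1368, 1311, 1288 and 1048 against 951, 1007, 998, 923 and 1070 (0.36 ± 0.08 SE, limma adjusted p = 0.910, DESeq2 adjusted p = 0.0104). WT_Dp3Tyb replicate 5 was the 1 heart of its group within the WT_Ts1Rhr range. Chchd2, a mitochondrial protein gene, had the same form, at 1950, 1904, 1982, 2085 and 1524 against 1275, 1303, 1562, 1397 and 1705 (0.38). The nuclear genes of oxidative phosphorylation as a list had a median of 0.04, with 7 higher and 2 lower of 79 at an unadjusted p under 0.05, where 2.17% of all genes were higher and 2.41% lower.

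Wars2, the mitochondrial tryptophan tRNA ligase gene, held apart in all hearts, at 294, 302, 298, 310 and 308 against 231, 231, 263, 199 and 261 (0.36, limma adjusted p = 0.910), but was 284 ± 11.9 and 273 ± 13.6 in the mutants (0.06). Eif3m, a translation initiation factor subunit gene, was 1639 ± 24 and 1423 ± 75.9 (0.21), and 0.17 in the mutants. Wdr37, at 729 ± 10.9 and 634 ± 18.6 (0.20), and Rnf14, at 1412 ± 65.8 and 1224 ± 45.6 (0.21, DESeq2 adjusted p = 0.0275), also did not overlap (SD, n = 5 each). The glycerol phosphate dehydrogenase gene Gpd1 had the largest difference of the 15 higher genes named by the rule, 0.85, at 21.6 ± 4.32 and 11.4 ± 2.16, and -0.11 in the mutants.

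Nnt, which carries a deletion in C57BL/6J, read 2587, 3014, 2772, 3086 and 2613 against 2405, 2414, 2606, 2088 and 2958 (0.18, limma adjusted p = 0.910). Sequence variants were not examined.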

How the data were processed

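Hearts were lysed and RNA extracted (RNeasy), poly(A)-selected libraries were made with the KAPA mRNA HyperPrep kit, and an Illumina HiSeq machine was used for sequencing. The authors deposited 1 table of normalised counts (unit: signal, reads divided by a size factor per library) for 48795 genes in 20 libraries. The submitters' processing notes name GRCm38, Trimmomatic 0.36, STAR 2.5.2a, RSEM 1.2.31, DESeq2 and DESeq, without role or order, and annotation release and strand setting are not given in the sources used here. Dividing by the smallest step gave whole reads for 100% of values (tolerance 0.01), which may be rounded RSEM estimates. Symbols, biotypes and lengths came from GENCODE vM39 (44565 genes, 91.3%, matched by identifier) and positions from RefSeq GRCm38.p6.

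Members and gene lists were chosen with earlier results of these data known. Genes at 10 or more in at least 5 of the 10 libraries were tested with limma 3.58.1 on log2(normalised count + 1), Benjamini-Hochberg threshold 0.05, in R 4.3.3; log2 differences of low genes are understated on this scale. edgeR 4.0.16 and DESeq2 1.42.0 were run on the recovered reads. Shares of reads were compared by two-sided exact permutation over 252 splits. Named genes were the 15 per direction with the largest change among passing genes or, where none passed, with the smallest unadjusted p, the smallest-p and the highest-mean member of each list, all globins, and Xist, Ddx3y, Myh6, Myh7, Myl2, Myl7, Nppa, Tnnt2, Nnt and Dyrk1a; other names were chosen after their values were seen. On counts simulated from these 14779 genes limma recovered 37.3% of 1.5-fold, 64.2% of 2-fold and 86.4% of 3-fold changes, with 7 false calls. Genes were drawn independently there and no library stood apart across genes, so these rates need not hold for the measured hearts. PCR reads carry no molecular identifiers, so limits from a count of 0 cover counting error only. Alternatives were other tests, scalings, pseudocounts, filters and covariates, and leaving out libraries. Results for a few named genes are not reported here.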

Additional observations from a re-analysis of the deposited data

Results flagged for a closer look

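Among 48 reported values checked in each of the 2 wild-type groups (96 checks), 9 had 1 heart far from the other 4, by the gap to its nearest neighbour divided by the whole range, against a critical value of 0.71; chance gives about 1 in 20 checks. WT_Dp3Tyb replicate 5 stood apart for the mitochondrial share of reads (ratio 0.961, 19.5% against 4.85% to 5.42%), Tnnt2 (0.885, 86245 against 34452 to 40425), Myl2 (0.787, 60491 against 36371 to 41508), Rpl21-ps15 (0.762, 120 against 52.3 to 68.5) and Ndufb5 (0.748, 1048 against 1288 to 1368). WT_Ts1Rhr replicate 5 stood apart for Hbb-bs (0.854, 64834 against 7721 to 16077) and Hbb-bt (0.822, 28040 against 3478 to 7850), and WT_Ts1Rhr replicate 2 for Hba-x (0.877, 19989 against 6445 to 8111). WT_Dp3Tyb replicate 1 stood apart for Heatr1, a ribosome biogenesis gene (0.807, 686 against 561 to 585).

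The difference between cohorts itself differed between wild-type and mutant hearts for C2cd2 (-0.709 on the log2 scale, limma adjusted p = 0.0292) and Zbtb21 (-0.614, limma adjusted p = 0.0358). By the paper, both genes have an extra copy in Dp3Tyb but not in Ts1Rhr mice. Neither passed with no filter.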

How the results depend on the processing

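The main limma test called 0 genes between the wild-type groups. Other settings called more: DESeq2 18 (3 higher, 15 lower), a mitochondrial share term 1 (1 higher), array weights 3284 (1592 higher, 1692 lower), and without 1 replicate at a time 0 to 9 (higher 0 to 3, lower 0 to 6), the 9 being without WT_Dp3Tyb replicate 5. Settings added after the data were seen called 29 without the shallowest library of each cohort (7 higher, 22 lower), 7 averaged over wild-type and mutant hearts (2 higher, 5 lower) and 1543 with DESeq2 without WT_Dp3Tyb replicate 5 (707 higher, 836 lower). Between mutant groups the 5 calls became 25 with DESeq2, 8 with no filter and 3 to 12 without 1 replicate at a time. The 2 genes that differed between wild types and mutants became 0 with no filter and 0 to 3 without 1 replicate at a time. The globin share difference of -0.498 percentage points passed without WT_Ts1Rhr replicate 4 (-0.628) and in the mutant hearts (-0.570); without 1 replicate at a time it ran from -0.628 to -0.303, the mitochondrial share from -5.26 to -0.731, the embryonic beta-type share from -9.57 to 3.56 and the Myl7 share from -0.338 to 0.801. The causes were not tested. Of 109 named genes, 19 changed sign in an alternative while called in neither, 49 passed in an alternative other than array weights, and none reversed while called. The median over all genes stayed between -0.018 and 0.0053 in all settings. No paired analysis was possible because the labels give no replicate numbers that the groups share. The 6.60 M reads of WT_Dp3Tyb replicate 5 limit what can be said of genes near 10 counts.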
